A study of Mus musculus with 4 samples.

Results

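Hox genes are homeobox transcription factor genes that lie in 4 clusters, A to D, and are numbered as paralogues from the 3′ end of a cluster to its 5′ end. They were taken here as every non-control probe whose gene name is Hox, a cluster letter and a paralogue number and nothing more. That rule found 50 probes for 38 genes, out of 41174 non-control probes and 21475 named genes. Each gene was read from its brightest probe. Of the 39 Hox genes in the RefSeq gene table, 38 had a probe by this rule, and Hoxc11 was not analysed here.

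During gastrulation and axis elongation, the low-numbered genes at the 3′ end of a cluster come on first and reach the hindbrain, and the high-numbered genes come on later and stay nearer the tail. Their proteins give cells along the head-to-tail axis their regional identity. Retinoic acid, Wnt and Fgf signals and the Cdx factors start and extend their expression, TALE homeodomain proteins such as Pbx and Meis bind DNA with them, and trithorax and polycomb complexes keep them on or off.

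RNA came from pools of whole embryos homozygous for the V1330M missense allele of Btaf1 and from pools of wild-type embryos. The Btaf1 protein uses ATP to strip TBP, the TATA-binding protein, off promoters. The allele was induced with ENU in C57BL/6J mice, and all embryos of both genotypes had a hybrid C57BL/6J and FVB/NJ background with 50% to 90% FVB. Embryos of 3 to 5 somites were used where possible, a stage that the submitters placed just before any visible phenotype. The stage_matched pools put somite number first, and the age_matched pools held as many litter mates as possible and allowed a difference of up to 5 somites. Each set was 1 mutant pool and 1 wild-type pool, read on 2 arrays with the dyes exchanged, so n = 2 sets and the 4 arrays are not 4 replicates. The labels do not give the number of embryos in a pool, whether the sets shared embryos, or whether yolk sacs were kept. The p-values thus rest on the spread between 2 sets of pools, moderated by limma. A gene's own spread gives 1 residual degree of freedom, and 7.1 prior degrees of freedom come from all tested probes. The SE of a gene can thus be smaller or larger than its own 2 sets would give.

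Ratios are given on the log2 scale, with the mutant divided by the wild type, and levels are named as such. The 4 arrays lay on 1 slide, the share of spots well above background was 52.9% to 59.6% for the mutant channel and 57.1% to 59.5% for the wild-type channel, and no spot was saturated. Array ratios over all tested probes correlated more between the 2 sets in 1 dye orientation (r = 0.71 with the mutant in Cy5 and 0.42 with the mutant in Cy3) than between the orientations of the age_matched set (r = 0.16) and of the stage_matched set (r = 0.39). Btaf1 itself read 0.28 and -0.12 in the stage_matched pools and 0.20 and 0.05 in the age_matched pools, with a mean of 0.10 ± 0.03 (SD, n = 2; limma adjusted p = 0.555). A missense change need not alter the transcript, so this reading does not test the labels.

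The Hox genes of these embryos were fully detected at the anterior end of the clusters and less often detected toward the posterior end. A gene was tested where its probe was well above background on all 4 arrays in the mutant channel or on all 4 in the wild-type channel. All 12 anterior genes (paralogues 1 to 4, which pattern the hindbrain and neck) were tested. Of the 11 central genes (paralogues 5 to 8, active in the trunk) 8 were tested, or 72.7%, and of the 15 posterior genes (paralogues 9 to 13, active toward the tail) 7 were tested, or 46.7%. Over all named genes the share was 63.3%. Detection did not fall evenly along the clusters: all 4 paralogue 9 genes were tested, while Hoxc5 and Hoxc8 of the central group were not. The tested Hox genes thus numbered 27, with 10 of 11 in cluster A, 8 of 10 in cluster B, 3 of 8 in cluster C and 6 of 9 in cluster D.

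Of the 11 untested genes, 8 were not well above background in any of the 8 channel readings: Hoxa13, Hoxb13, Hoxc5, Hoxc8, Hoxc10, Hoxc12, Hoxc13 and Hoxd11. The other untested genes were read in part. Hoxb8 was well above background on 3 arrays in each genotype, Hoxd12 on 2 mutant and 1 wild-type readings, and Hoxd13 on 1 mutant and 3 wild-type readings. Among the tested genes Hoxa6, Hoxa11 and Hoxd10 missed some readings, and Hoxd10 was well above background on 2 of 4 arrays in the mutant and 4 of 4 in the wild type. Hoxa11 and Hoxd10 were tested through the wild-type channel only and Hoxa6 through the mutant channel only. In each case the mean was higher in that channel. No ratio is interpreted for the untested genes. Their mean ratios lay between -0.12 (Hoxd13) and 0.15 (Hoxc10).

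**Figure D1:**
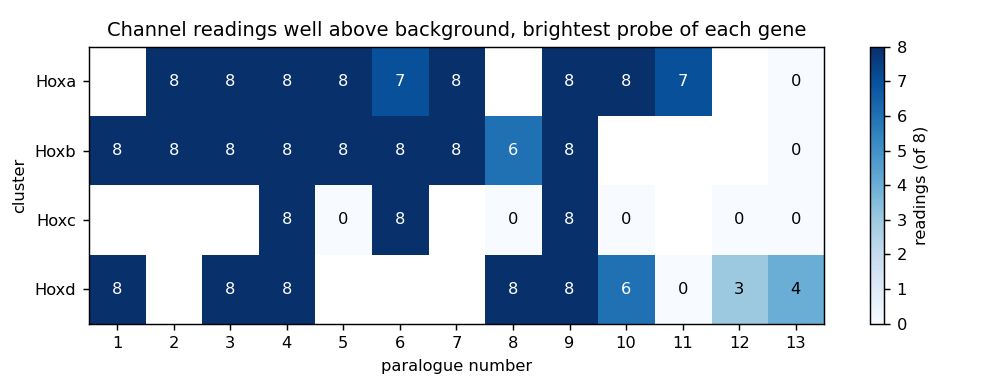
Number of channel readings, of 8 (2 genotypes on 4 arrays), in which the brightest probe of 37 of the 38 Hox genes was well above background, by cluster (rows) and paralogue number (columns). White squares without a number carry no value here, every number shown for paralogues 1 to 4 is 8, and most squares from paralogue 10 on are at 0 to 4 outside cluster A.

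Against the wild type, 1 of the 27 tested Hox genes rose (Hoxb2) and 2 fell (Hoxa9 and Hoxb9) at a limma adjusted p under 0.05. Among the 13595 tested named genes, 2.13% were called higher and 2.79% lower, or 4.92% in either direction. The 3 Hox calls are 11.1% of 27, a share that rests on 3 genes. Positive means numbered 18 (66.7%, beside 54.3% of all tested named genes) and negative means 9. The median over the 27 genes was 0.06, beside 0.02 over all tested named genes. The ratio was above 0 on all 4 arrays for 5 Hox genes (Hoxa3, Hoxa7, Hoxb2, Hoxb3 and Hoxd1; 14.9% of all named genes) and below 0 on all 4 for 2 (Hoxa9 and Hoxd10; 13.6% of all named genes).

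**Figure D2:**
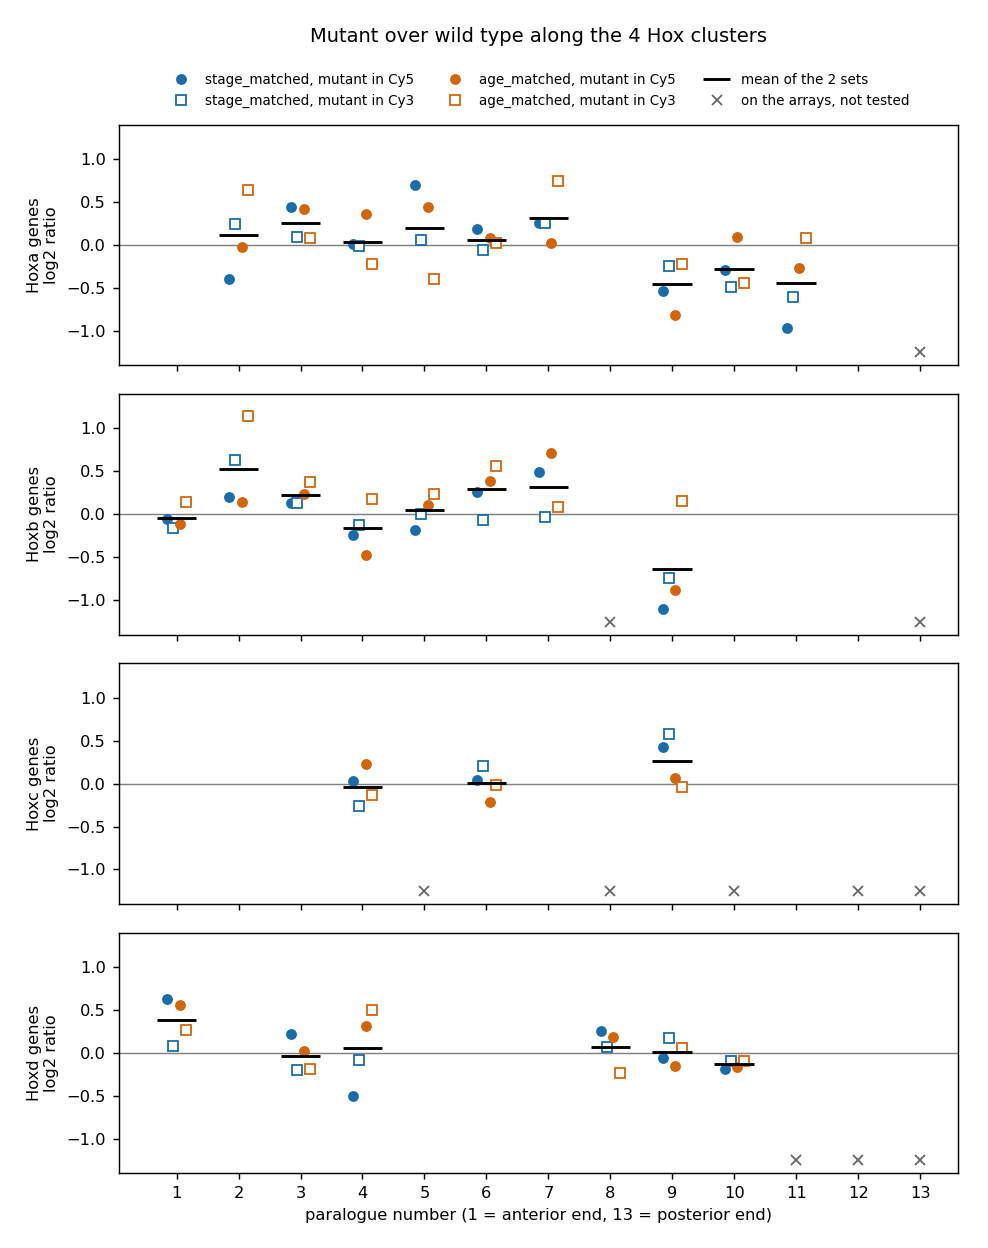
Log2 ratio of mutant over wild type for 26 of the 27 tested Hox genes on each of the 4 arrays (points; filled with the mutant in Cy5, open with the mutant in Cy3) and the mean of the 2 sets (black bars), by paralogue number in each cluster. Crosses at the foot mark genes that were on the arrays but not tested and carry no ratio. The bars of Hoxa9, Hoxa10 and Hoxa11 lie at -0.46, -0.28 and -0.44, below those of Hoxa2 to Hoxa7.

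In the anterior group the ratios were small. The median of the 12 genes was 0.09, with 8 positive (66.7%, beside 54.3% of all tested named genes) and 4 negative. The 1 call was 8.3% of the 12, beside 4.92% of all named genes. With median centring in place of loess the median was -0.0090, with 6 positive. Hoxb2, which acts in the hindbrain downstream of Egr2, read 0.20 and 0.64 in the stage_matched pools and 0.14 and 1.15 in the age_matched pools. All 4 arrays were above 0, and in both sets the array with the mutant in Cy3 was the higher. The mean was 0.53 ± 0.16 (SD, n = 2), a 1.45-fold higher level, with a limma adjusted p of 0.028. Its level was 11.6 to 12.1 on the log2 intensity scale in the mutant readings and 10.9 to 11.5 in the wild-type readings, which did not overlap.

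The Hoxb2 call was lost when any 1 of 3 arrays was left out. Without the age_matched array with the mutant in Cy3 the value was 0.28 (adjusted p = 0.247), while it was 0.42 (adjusted p = 0.079) without the stage_matched array of that orientation and 0.78 (adjusted p = 0.208) without the age_matched array with the mutant in Cy5. The tested probe lies at chr11:96215122-96215181 on the plus strand of mm9, the strand of the gene. A second probe named Hoxb2 lies 3262 bases away on the minus strand, antisense to the gene, and at 0.22 it was too dim to be tested. RefSeq places the long non-coding gene Hoxb3os across part of Hoxb2 and Hoxb3.

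Hoxd1, the cluster D member of the first paralogue group, read 0.63 and 0.08 in the stage_matched pools and 0.56 and 0.26 in the age_matched pools. All were above 0, and the sets gave 0.35 and 0.41. Its mean of 0.38 ± 0.04 (SD, n = 2) missed the threshold at a limma adjusted p of 0.055. Hoxb1, the rhombomere 4 gene, was read from 10 spots and averaged -0.05 ± 0.09 (SD, n = 2).

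Hoxa2, which patterns the second pharyngeal arch, averaged 0.12 and followed the dye orientation, with -0.21 for the mutant in Cy5 and 0.44 for the mutant in Cy3. Of paralogue group 3, Hoxa3 averaged 0.26 ± 0.01 (SD, n = 2; adjusted p = 0.142) and Hoxb3 0.22 ± 0.12 (adjusted p = 0.220), while Hoxd3 was near 0 at -0.03. The second tested probes of Hoxa3 and Hoxb3 gave 0.10 and -0.05. The 4 members of paralogue group 4 lay between -0.16 (Hoxb4) and 0.06 (Hoxd4), and none was called. RefSeq places Hoxa4, Hoxb4 and Hoxd4 inside the span of the paralogue 3 gene of the same cluster, on the arrays as probes of their own.

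In the central group all 8 tested means were above 0, beside 54.3% of all tested named genes, but Hoxb5, Hoxc6 and Hoxd8 were below 0 with median centring, Hoxc6 and Hoxd8 with the scanner's processed signals, and Hoxc6 with no background correction. The group's median was 0.14, and no member was called. Hoxa6 was admitted by the filter through the mutant channel only. The paralogue 7 genes were the largest. Hoxa7 read 0.25 and 0.26 in the stage_matched pools and 0.03 and 0.74 in the age_matched pools, all above 0, with a mean of 0.32 ± 0.09 (SD, n = 2; limma adjusted p = 0.093). Hoxb7 averaged 0.31 ± 0.12 (adjusted p = 0.103), but its arrays gave 0.49 and 0.72 with the mutant in Cy5 and -0.04 and 0.09 with the mutant in Cy3.

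Hoxb6 averaged 0.29 ± 0.27 (SD, n = 2; adjusted p = 0.176) from its brightest probe and -0.09 from a second tested probe 2282 bases away. Hoxa5, which acts in the lung and neck, averaged 0.20, with 0.70 and 0.45 for the mutant in Cy5 and 0.06 and -0.39 for the mutant in Cy3. Hoxa6, Hoxb5, Hoxc6 and Hoxd8 lay between 0.00 (Hoxc6) and 0.07 (Hoxd8). At an unadjusted p under 0.05, 3 central and 4 anterior genes were higher and none of either group was lower, beside 11.5% of all named genes higher and 11.2% lower.

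The posterior group held both genes that fell, 2 of its 7 tested genes, beside 2.79% of all tested named genes called lower. That share rests on 2 genes. Its median was -0.28, and -0.22 to -0.51 under the other scalings run (no background correction, median centring and processed signals). Of its 7 genes 5 were below 0, beside 6211 of the 13595 tested named genes. At an unadjusted p under 0.05, 4 of 7 were lower (Hoxa9, Hoxa10, Hoxa11 and Hoxb9), beside 11.2% of all named genes. Both counts include genes that the filter admitted through the wild-type channel only, Hoxa11 in both and Hoxd10 in the first. Their lower ratios are thus not independent of the filter. With both channels required on all 4 arrays the median was -0.28. Hoxa9 read -0.54 and -0.25 in the stage_matched pools and -0.81 and -0.22 in the age_matched pools. All 4 arrays were below 0, and the larger falls were those with the mutant in Cy5. The mean was -0.46 ± 0.09 (SD, n = 2), a 1.37-fold lower level, with a limma adjusted p of 0.037. Hoxa9 had 1 probe, at chr6:52174269-52174328 on the minus strand of mm9.

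Hoxb9 read -1.10 and -0.74 in the stage_matched pools and -0.88 and 0.16 in the age_matched pools. It was below 0 on 3 of 4 arrays, and the age_matched array with the mutant in Cy3 was above 0. The mean was -0.64 ± 0.39 (SD, n = 2), a 1.56-fold lower level, with a limma adjusted p of 0.038. Its moderated SE of 0.13 was smaller than its own 2 sets alone would give. On the age_matched array with the mutant in Cy3 its wild-type level was 8.84 on the log2 intensity scale. The other wild-type readings were 10.4 to 11.3. The second tested Hoxb9 probe lay 683 bases away on the same strand. It gave 0.00, -0.40, 0.10 and -0.15 on the same arrays in the same order, with a mean of -0.11 (adjusted p = 0.544), so the fall was read by 1 of 2 probes.

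Both posterior calls were lost without the stage_matched array with the mutant in Cy5 (Hoxa9 -0.38, adjusted p = 0.154; Hoxb9 -0.55, adjusted p = 0.053) and without the age_matched array of that orientation (Hoxa9 -0.31, adjusted p = 0.464; Hoxb9 -0.38, adjusted p = 0.590). Without the age_matched array with the mutant in Cy3 only the Hoxa9 call was lost among the 2 (-0.60, adjusted p = 0.059). With no background correction Hoxa9, Hoxb9 and Hoxb2 kept their direction but not their calls (adjusted p = 0.080, 0.097 and 0.072). The Hoxb2 call was also lost with median centring (0.45, adjusted p = 0.059), and the Hoxb9 call when dim probes were kept (adjusted p = 0.078).

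**Figure D3:**
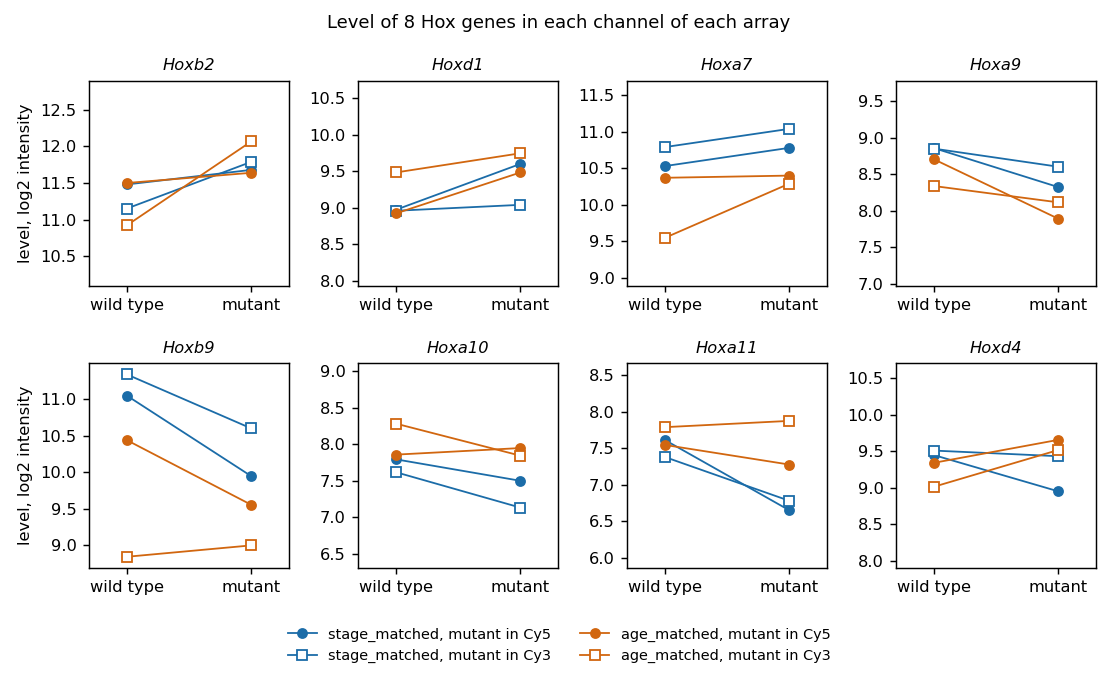
Level (log2 intensity) of 8 Hox genes in the wild-type and mutant channels of each array; each line joins the 2 channels of 1 array, filled points have the mutant in Cy5 and open squares the mutant in Cy3. All panels span the same range. The lines of Hoxb2 rise and those of Hoxa9 fall on all 4 arrays, while those of Hoxb9 fall on 3 of 4.

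Hoxa10, next to Hoxa9 in its cluster, read -0.29 and -0.49 in the stage_matched pools and 0.09 and -0.44 in the age_matched pools, with a mean of -0.28 ± 0.15 (SD, n = 2; limma adjusted p = 0.140). Hoxa11, a gene of the hind part of the axis and of the limbs, read -0.96 and -0.60 in the stage_matched set and -0.27 and 0.09 in the age_matched set. Its mean of -0.44 ± 0.49 (SD, n = 2; adjusted p = 0.138) was within the spread between sets. RefSeq places the antisense gene Hoxa11os over part of Hoxa11. Hoxd10 was below 0 on all 4 arrays, from -0.18 to -0.09, and averaged -0.13 (adjusted p = 0.427).

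The other paralogue 9 genes did not pass the test in either direction. Hoxc9 read 0.43 and 0.58 in the stage_matched set and 0.06 and -0.04 in the age_matched set, with a mean of 0.26 ± 0.35 (SD, n = 2; adjusted p = 0.267). Hoxd9 averaged 0.00 ± 0.08, and its second tested probe gave 0.10. The 4 genes of this paralogue group thus ranged from -0.64 (Hoxb9) to 0.26 (Hoxc9). Of the 5 Hox genes with 2 tested probes, the probes had the same sign in 3.

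Pooled over the clusters, the median ratio was lower in the posterior group, with no steady fall along the paralogue numbers. The medians were 0.09 (anterior), 0.14 (central) and -0.28 (posterior). The clusters differed: posterior medians were -0.44 in A (3 genes), -0.64 in B (1 gene), 0.26 in C (1 gene) and -0.065 in D (2 genes). Over the 27 tested genes Pearson's r between paralogue number and mean ratio was -0.55 and Spearman's rho -0.44, and r was -0.43, -0.29, -0.47 and -0.38 on the 4 single arrays. Cluster A, the best covered, had r = -0.79 and rho = -0.62 over 10 genes, with r from -0.69 to -0.29 on single arrays. Cluster D had r = -0.71 and rho = -0.60 over 6, but r was 0.25 on the stage_matched array with the mutant in Cy3 and -0.79 to -0.44 on the other arrays. Cluster B had r = -0.46 over 8 genes but rho = -0.17, with Hoxb9 its only tested posterior gene. Cluster C had too few tested genes for a value, and its means rose from -0.03 (Hoxc4) through 0.00 (Hoxc6) to 0.26 (Hoxc9). Genes share arrays and pools and are not independent, so these are descriptions with no p.

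The 2 sets of pools were compared for each gene by the difference of their ratios, age_matched minus stage_matched. This fit rests on the 2 arrays of each set, so its error is technical and does not include the spread between pools. Of the 27 Hox genes, 2 differed and both were higher in the age_matched set, beside 1.37% of all named genes higher and 0.728% lower (2.1% in either direction). The SE was nearly the same for every gene, so a call here follows the size of the difference. Hoxd4, a hindbrain and neck gene that responds to retinoic acid, read -0.50 and -0.08 in the stage_matched set and 0.32 and 0.50 in the age_matched set. The sets did not overlap and were of opposite sign, and the difference was 0.70 (SE 0.17, limma adjusted p = 0.0081). The difference for Hoxa11 was 0.69 (SE 0.17, limma adjusted p = 0.0090), with its arrays also apart.

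Across the anterior genes 10 of 12 were higher in the age_matched than in the stage_matched set, beside 52.0% of all tested named genes. The anterior median moved from 0.01 among stage_matched pools to 0.28 among age_matched pools. Central genes were split, with 4 of 8 higher in the age_matched set and medians of 0.14 and 0.11. The posterior medians were -0.39 and -0.13. Over the Hox genes the median absolute difference between the dye orientations was 0.32 and that between the sets 0.18, beside 0.21 and 0.13 over all tested named genes.

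**Figure D4:**
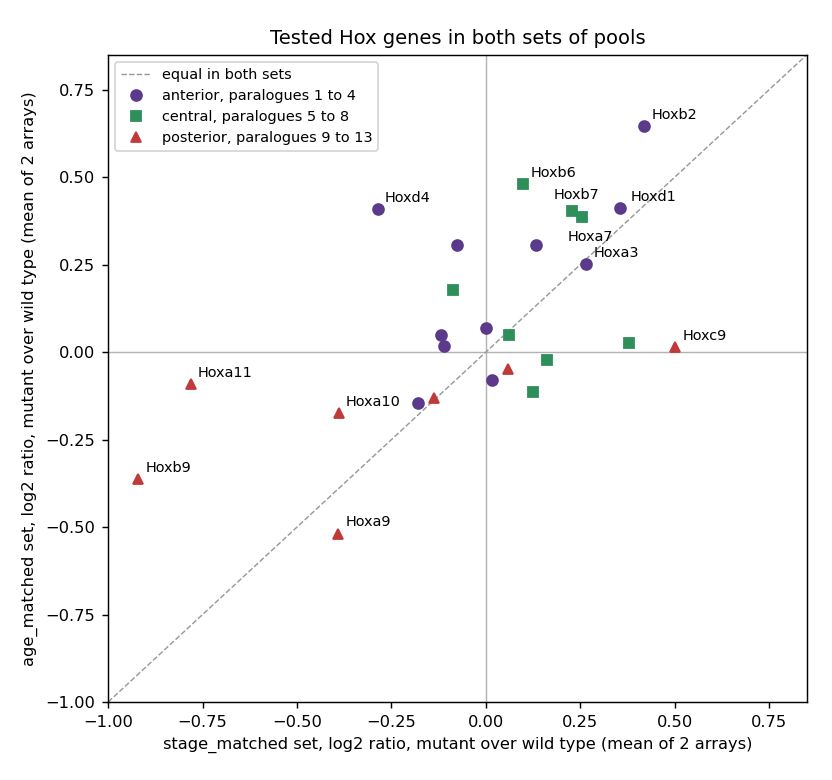
Log2 ratio of mutant over wild type in the age_matched set (vertical) against the stage_matched set (horizontal) for 26 of the 27 tested Hox genes, each the mean of 2 arrays; the dashed line marks equal values. Hoxd4 lies at -0.29 and 0.41 and Hoxa11 at -0.78 and -0.09, the largest distances above the line, and most anterior genes lie above it.

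The start regions of Hoxd4, Hoxa11 and Hoxa9 are shown because the first pair differed between the sets and Hoxa9 was called. RefSeq (GRCm38.p6, another build than the probes') gave 24 promoter windows for 22 of the Hox genes. The 250 bases before each start were searched on both strands, at any position. The letters searched were TATAAA (as in a TATA box), TTTATG (a core of the Cdx binding site) and CCAAT (the CCAAT box). Their matches do not overlap one another in the Hoxd4 window. Capitals mark matches, and a match on the minus strand is printed as its reverse complement.
Hoxd4, chr2:74721728-74721977, plus strand: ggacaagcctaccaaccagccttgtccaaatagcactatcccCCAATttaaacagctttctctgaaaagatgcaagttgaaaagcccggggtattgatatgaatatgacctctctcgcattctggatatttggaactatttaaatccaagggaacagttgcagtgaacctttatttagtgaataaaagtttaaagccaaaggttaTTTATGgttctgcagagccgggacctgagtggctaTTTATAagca
Hoxa11, chr6:52245811-52246060, minus strand: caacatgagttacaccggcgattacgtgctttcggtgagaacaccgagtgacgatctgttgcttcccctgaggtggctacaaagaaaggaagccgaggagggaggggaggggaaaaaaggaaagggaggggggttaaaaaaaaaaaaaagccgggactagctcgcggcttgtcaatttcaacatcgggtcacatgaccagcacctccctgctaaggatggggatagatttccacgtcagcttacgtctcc
Hoxa9, chr6:52227371-52227620, minus strand: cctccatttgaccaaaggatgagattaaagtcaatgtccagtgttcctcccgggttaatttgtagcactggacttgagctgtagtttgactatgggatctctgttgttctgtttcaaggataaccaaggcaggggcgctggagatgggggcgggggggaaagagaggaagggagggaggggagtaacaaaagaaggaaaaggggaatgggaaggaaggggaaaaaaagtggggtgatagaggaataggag
Hoxd4 held all 3 motifs, and the windows of Hoxa9 and Hoxa11 held none of these letters. TATAAA was in 4 of the 24 Hox windows (16.7%, beside 12.4% of all 32851 windows), TTTATG in 5 (20.8%, beside 10.8%) and CCAAT in 14 (58.3%, beside 33.9%). The 4 genes with TATAAA were Hoxa10, Hoxb8, Hoxd4 and Hoxd13, of which Hoxa10 and Hoxd4 were tested, and neither was called against the wild type. Hoxb2 and Hoxb9 have no entry.

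Genes that act on Hox transcription were read from lists. Of 17 regulators 16 were tested. At a limma adjusted p under 0.05, 0 were called higher and 1 lower, beside 2.13% and 2.79% of all named genes. Without adjustment 2 were higher and 2 lower at p under 0.05, beside 11.5% and 11.2% of all named genes. Cyp26a1, the enzyme that degrades retinoic acid in the tail, fell by 0.47 ± 0.02 (SD, n = 2; adjusted p = 0.030). Aldh1a2, which makes retinoic acid, averaged 0.28 (adjusted p = 0.145), and Egr2, the hindbrain activator of Hoxb2, averaged -0.39 (adjusted p = 0.073). The highest member was T, the mesoderm factor, at 0.41 ± 0.44 (adjusted p = 0.139).

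Like the anterior Hox genes, these regulators had a higher median in the age_matched set (0.16) than in the stage_matched set (-0.07), and 3 of 16 differed between sets, all higher in the age_matched set, beside 1.37% of all named genes higher. Cdx1, a direct activator of Hox genes, went from -0.20 to 0.48 (adjusted p = 0.012), T from 0.10 to 0.72 (adjusted p = 0.027) and Wnt3a from -0.31 to 0.28 (adjusted p = 0.040). Cdx2 and Cdx4 were higher in the age_matched set by 0.47 and 0.38 but missed the threshold.

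Cofactors and neighbours gave no call. All 9 TALE genes were tested, none was called, no member had an unadjusted p under 0.05, and they ranged from -0.15 (Pbx3) to 0.20 (Pbx4). Of 13 chromosomal neighbours of the clusters 11 were tested and none was called, with 2 higher at an unadjusted p under 0.05, from -0.11 (Cbx5) to 0.37 (Evx1). Of 25 trithorax and polycomb genes 24 were tested, with a median of -0.06. In this list 1 was called higher and 1 lower, beside 2.13% and 2.79% of all named genes. Bmi1, a polycomb subunit, rose by 0.41 ± 0.05 (SD, n = 2, limma adjusted p = 0.045), and Kdm6b, which removes the polycomb mark H3K27me3, fell by 0.55 ± 0.13 (adjusted p = 0.024). Kdm6b read -0.81 and -0.47 in the stage_matched pools and -1.01 and 0.10 in the age_matched pools. It was above 0 on the age_matched array with the mutant in Cy3. The Bmi1 call was lost with median centring (0.30, adjusted p = 0.212) and with processed signals (0.41, adjusted p = 0.072).

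Of the ParaHox and other posterior homeobox genes 6 of 8 were tested, and Cdx1, Cdx2 and Cdx4 among them are also in the list of regulators. The 6 were all above 0 (except Gsx1 with median centring, at -0.00079), beside 54.3% of all tested named genes. All were higher in the age_matched set, beside 52.0%. None was called, and 2 were higher at an unadjusted p under 0.05, beside 11.5% of all named genes. The 6 genes ran from 0.07 (Gsx1) to 0.51 (Nkx1-2, limma adjusted p = 0.072). The posterior growth zone, where new trunk and tail tissue forms, had 11 of 12 genes tested and a median of 0.31. The set medians were 0.12 (stage_matched) and 0.46 (age_matched). Called higher were 2 (Tbx6 at 0.89 ± 0.52 and Dll1 at 0.56 ± 0.28), beside 2.13% of all named genes. Cyp26a1 was called lower, beside 2.79%. Between the sets 4 of 11 differed, beside 2.1%: T, Wnt3a, Tbx6 (0.52 to 1.25) and Sp5 (-0.07 to 0.69). T, Wnt3a, Fgf8 and Cyp26a1 are also in the regulator list, Nkx1-2 in the ParaHox list and Tbx6 among the somite markers. The Dll1 call was lost with median centring (0.46, adjusted p = 0.060). These values stand beside the lower readings of Hoxa9 and Hoxb9, and their relation was not tested. With no background correction no member of any of these lists of regulators, cofactors, chromatin genes, neighbours and posterior genes was called, and directions of the called genes were the same.

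Whole-embryo RNA cannot tell fewer cells of a type from less RNA per cell, and several cell-type marker lists moved with genotype. Over all named genes 2.13% were called higher and 2.79% lower, and 2.1% differed between the sets. All 8 yolk sac endoderm markers were called lower, with a median of -1.06 and a lowest value of -1.65 (Apoa1). Of the heart muscle markers 6 of 7 were called lower, with medians of -0.81 (stage_matched) and -1.84 (age_matched), and 5 differed between the sets. Of 8 primitive red cell markers 6 were tested and 3 called lower, the lowest being Hbb-bh1 at -1.64. Of these 6, 4 differed between the sets, in both directions. In the age_matched set Hbb-bh1, Hba-x and Hbb-y were lower (by 0.99, 1.06 and 0.87) and Hba-a1 was higher (by 0.64). Among tissues without Hox expression, the forebrain and midbrain had 4 of 8 markers tested and 2 lower, Lhx2 at -0.47 and En2 at -1.01.

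Among tissues that express Hox genes, paraxial mesoderm and somites had a median of 0.19 over 6 markers, with Tbx6 and Meox1 (0.41) higher, though Meox1 was not called with median centring or with processed signals (adjusted p = 0.175 and 0.087). Pax1 of the same list was below 0 on all 4 arrays at -0.41 ± 0.32 (SD, n = 2; adjusted p = 0.096) and was called lower with processed signals (-1.06, adjusted p = 0.018). Hindbrain and spinal cord markers had a median of -0.15 over 4 tested of 6, with none called, and 1 was higher and 1 lower at an unadjusted p under 0.05. With processed signals Pax3 was called lower (-0.53, adjusted p = 0.028). Lateral plate and allantois had 4 of 5 tested and 1 lower (Prrx1 at -0.53), and endothelium had 1 of 4 lower (Kdr at -0.54). The part of these marker shifts in the Hox ratios was not tested. With no background correction 4 of the yolk sac endoderm and 1 of the heart muscle markers were called, and none of the other tissues' markers, with medians of the same sign.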

How the data were processed

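RNA of whole embryos was labelled from 300 ng and hybridised to 4 two-colour arrays. Per the labels and the deposited scanner files, Feature Extraction gave each spot's intensity and background (version 9.5.3 in the submitters' processing notes, 10.5.1.1 in the file headers). The deposited value table holds the scanner's log10 ratio, with the sign turned on dye-swapped arrays which puts the mutant in the numerator. Its largest departure from the scanner's ratio was 5e-06, each column's median was 0, and its scale, centring and direction are known from this match. Probe positions are those the array files give. From the deposited intensities, normexp (offset 50) and within-array loess were run in limma 3.58.1 (R 4.3.3), with control spots and outlier-marked spots at weight 0. Marked spots were left out, spots of a probe averaged, and dye-swapped arrays sign-turned. Probes well above background on all 4 arrays in either genotype were tested (21940).

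The 2 set means were fitted with limma (two-sided, Benjamini-Hochberg over all tested probes, threshold 0.05). The difference between sets was fitted over 4 arrays with dye orientation as a term. Channel levels were scaled between arrays on average intensity (Aquantile). The number of arrays, and of the 2 sets of pools they read, limits the precision. Alternatives were the background correction, centring, processed signals, filter, marked spots, probe choice and each array or set left out. Members and lists were chosen with earlier results of these data known. The named genes were every Hox gene of the rule, Btaf1, and in each list the called members or, otherwise, the highest and lowest; Aldh1a2, Egr2, Cdx1, Cdx2, Cdx4 and Wnt3a were added after their values were seen. The fit was tested on simulated data. Exon and UTR positions were not analysed here. For 1 Hox gene the values are counted in the groups but not reported here.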

Additional observations from a re-analysis of the deposited data

Results flagged for a closer look

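Hoxa11 and Hoxd4 differed between the 2 sets of pools. The age_matched minus stage_matched difference was 0.69 for Hoxa11 and 0.70 (0.696) for Hoxd4, by limma over 4 arrays with a technical error only. Hoxa11 was lower in the mutant in the stage_matched set (-0.78) and near 0 in the age_matched set (-0.09), and Hoxd4 changed sign, from -0.29 to 0.41. With 1 pair of pools a set, matching rule and pool cannot be told apart.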

How the results depend on the processing

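Each array's ratio already pairs a mutant with a wild-type pool, and the 2 dye-swapped arrays of a set were averaged before the main fit. The labels give no replicate numbers that could serve as a further block. Signal over background left 8 of 15 posterior Hox genes untested. Of all probes 365 were called higher and 690 lower. These counts were 20 and 42 with no background correction, 120 higher with median centring (12.7% of calls higher, against 34.6%), 647 and 1367 with the scanner's processed signals, and 209 and 386 with dim probes kept. Hox genes called higher numbered 0 with no background correction and 0 with median centring, and those called lower 0 with no background correction, 1 with dim probes kept and 1 when every tested probe had to pass. The central median was 0.10 with no background correction, 0.067 with median centring, 0.22 with processed signals, 0.055 with dim probes kept, 0.20 when both channels had to be above background, 0.086 over all tested probes and 0.11 in the age_matched set; the posterior median was -0.51 with processed signals and -0.033 with dim probes kept, which adds the undetected genes. The anterior median was -0.0090 with median centring. Leaving out 1 array at a time gave 10 to 393 probes higher and 13 to 814 lower, 0 to 3 Hox genes higher and 0 to 2 lower, and medians of 0.06 to 0.12 (anterior), 0.065 to 0.22 (central) and -0.33 to -0.15 (posterior). Hoxb7 and Hoxd1 were called higher without the stage_matched array with the mutant in Cy3. The cause of these moves was not tested.

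Signs of genes near 0 turned: with no background correction Hoxc6 (-0.0040) and Hoxd9 (-0.0070); with median centring Hoxa4 (-0.019), Hoxb5 (-0.061), Hoxc6 (-0.095), Hoxd4 (-0.045), Hoxd8 (-0.0013) and Hoxd9 (-0.069); with processed signals Hoxc6 (-0.034) and Hoxd8 (-0.0048). They also turned in the stage_matched set alone for Hoxa2 (-0.075), Hoxb5 (-0.086), Hoxd3 (0.016) and Hoxd4 (-0.29) and in the age_matched set alone for Hoxb1 (0.017), Hoxc4 (0.050), Hoxc6 (-0.11), Hoxd8 (-0.022) and Hoxd9 (-0.049), alternatives chosen after seeing the data. With 1 array left out, 17 single-gene values turned and 80 kept direction and call, and the genes concerned ranged over -0.050 to 0.28 (Hoxa2), -0.11 to 0.18 (Hoxa4), -0.0076 to 0.41 (Hoxa5), -0.0061 to 0.12 (Hoxa6), -0.11 to 0.018 (Hoxb1), -0.0026 to 0.093 (Hoxb5), -0.12 to 0.055 (Hoxc4), -0.043 to 0.052 (Hoxc6), -0.14 to 0.073 (Hoxd3), -0.044 to 0.17 (Hoxd4), -0.036 to 0.17 (Hoxd8) and -0.054 to 0.063 (Hoxd9).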
